A study of Mus musculus with 2 samples.

Results

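Alox12e and Alox15 are 2 of the 31053 genes counted in single cells of mouse corneal epithelium, and 2 of the 7 lipoxygenase genes among them. They were chosen by their measured counts: their unique molecular identifiers (UMIs, 1 per captured RNA molecule) lay almost wholly in cells that hold the limbal keratin Krt15 in place of the corneal keratin Krt12. The levels by cell class given here are therefore a description with no test. Epithelial sheets were peeled from corneas of CycB1-GFP mice after overnight Dispase, and dissociated in trypsin. Live cells with GFP were then collected by flow sorting with DAPI as the viability stain, and the libraries were made with 10x Chromium Single Cell 3′ v3 chemistry. The single group had 2 labelled replicates and no untreated or GFP-negative arm. The sort kept only cells carrying the reporter, which by its name is of cyclin B1, so cells without it were not sampled. The labels do not state the age, the sex or the number of mice behind each library.

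The deposited matrix held 2 libraries, told apart by a suffix on the cell barcodes and called library 1 and library 2. The suffix could not be tied to the labelled replicates. The libraries shared 5 barcodes, 4 of them in cells kept on both sides. Cells with at least 500 genes and under 20% mitochondrial UMIs were kept, 3187 in library 1 and 3001 in library 2, with median depths of 5571 and 5886 UMIs per cell and 18773893 and 17796678 UMIs in all. The libraries stood apart in both genes, with 592 and 2691 Alox12e UMIs and 295 and 1513 Alox15 UMIs, so each level below is given for library 1 and then library 2. Nothing in the labels says whether the libraries came from separate animals. The p-values below measure the spread over sums of classes or phases in these 2 libraries, not over animals. Sums of 1 library share their source but are counted apart, so these p-values may be too small.

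Lipoxygenases are iron enzymes that add oxygen to polyunsaturated fatty acids such as arachidonic acid, giving hydroperoxy acids that glutathione peroxidases and peroxiredoxins reduce to hydroxy acids. Phospholipases free the fatty acid from membranes, acyl-CoA synthetases and lysophospholipid acyltransferases return it, and cyclooxygenases compete for it to make prostaglandins. Alox15 is found in macrophages, eosinophils and epithelia, where its products can signal and can be carried into membrane lipids, and its transcription in other cells is known to answer to interleukin 4 and interleukin 13 through Jak1 and Stat6. Alox12e encodes an epidermal-type lipoxygenase and Alox12 the platelet-type enzyme. In the cornea and conjunctiva, lipoxygenase products are known for their part in wound healing and inflammation.

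The 3 genes lie in a row on the minus strand of chromosome 11 (GRCm38, GENCODE M21). Alox12 spans 70241457 to 70255353, Alox12e (ENSMUSG00000018907) spans 70315610 to 70322628 and Alox15 (ENSMUSG00000018924) spans 70344152 to 70352031, with 14 exons in the longest transcript of each. The gap between Alox12 and Alox12e is 60256 bases and that between Alox12e and Alox15 is 21523 bases. No run of over 16 bases is shared by the longest transcripts of Alox12e and Alox15 or of Alox12e and Alox12, and 18 bases is the longest run shared by Alox15 and Alox12. Promoter windows are shown here because the neighbouring genes moved together between cell classes (values below). Each window is 150 bases long and ends 101 bases before the start site in RefSeq, on GRCm38.p6, read 5′ to 3′ on the gene's strand. The Alox12e window is chr11:70322631-70322780 on the minus strand and the Alox12 window is chr11:70255471-70255620 on the minus strand. Capitals mark matches to GGGTG, a core of Krueppel-like factor sites, and to ACAANG, a core of Sox sites, each searched on both strands.
Alox12e: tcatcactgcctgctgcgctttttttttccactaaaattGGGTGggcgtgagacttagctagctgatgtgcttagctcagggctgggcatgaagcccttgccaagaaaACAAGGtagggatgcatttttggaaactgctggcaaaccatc
Alox12: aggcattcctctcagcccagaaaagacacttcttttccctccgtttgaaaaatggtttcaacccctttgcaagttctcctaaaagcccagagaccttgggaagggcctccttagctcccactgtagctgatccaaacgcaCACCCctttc
The Alox12e window holds 1 match to each motif, and the Alox12 window holds 1 match to GGGTG on the other strand. Motifs of the GC box, AP-1, STAT6, E-box and TATA types were also searched and had no match in either window. Among 32841 RefSeq promoter windows of the same length, 35.2% hold GGGTG and 24.2% hold ACAANG, so the matches are common and describe the letters only. GENCODE starts Alox12e upstream of the RefSeq site, at 70322628, directly beside the window. The Alox15 promoter was not analysed here.

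Cells were placed in classes by the UMIs of 6 genes. Cells with 5 or more Krt12 and Krt15 UMIs were called corneal where Krt12 made up more than 0.8 of that sum and Krt15-dominant where it made up less than 0.4. Krt15-dominant cells were split by 3 or more UMIs of the mucosal keratins Krt4, Krt13 and Krt19 and by 2 or more UMIs of Gpha2, a glycoprotein hormone subunit that marks limbal cells. This gave a mucosal-keratin class (120 cells in library 1 and 158 in library 2), a mucosal-keratin class with Gpha2 (110 and 244), a Gpha2 class (294 and 450), a Krt15-only class (139 and 107) and a corneal class (2304 and 1821). A mixed class (161 and 164) lay between the Krt12 bounds, and 59 and 57 cells had too little of both keratins.

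The summed corneal and conjunctival markers that the rule did not use differed between the classes, although single markers did not all follow the sums. The limbal markers set the Krt15-dominant classes apart far less. The corneal markers Slurp1, Aldh3a1, Tkt, Pax6 and Upk1b summed to 15201 and 21439 counts per 1000000 UMIs of the class (CPM) in corneal cells against 1742 and 1741 in the mucosal-keratin class. Pax6, the eye field transcription factor, differed little, at 546 and 465 CPM in corneal against 415 and 391 in mucosal-keratin cells. The conjunctival markers Krt8, Krt18, Krt7, Muc4 and Gsto1 summed to 3666 and 6480 CPM in the mucosal-keratin class, 753 and 1135 in the Gpha2 class and 1177 and 1503 in corneal cells. Gsto1, a glutathione transferase, gave 3069 and 4979 CPM of the mucosal-keratin sums, and Gsto1 and Muc4 stood higher in corneal than in Gpha2 cells. Krt8, Krt18 and Krt7 of library 1 were highest in low-keratin cells, at 442, 206 and 353 CPM. The limbal markers Ifitm3, Cd63, Krt14 and Trp63 summed to 9150 and 7720 CPM in mucosal-keratin and 9418 and 9631 in Gpha2 cells. Their sums were 10437 and 9200 CPM in Krt15-only and 7621 and 4102 in corneal cells. Krt15, used to place cells, stood at 11189 and 16652 CPM in mucosal-keratin and 4883 and 6656 in Gpha2 cells. The goblet cell genes Muc5ac, Spdef and Tff1 had no UMI in any of the mucosal-keratin, Gpha2, corneal or low-keratin classes. Agr2, the other goblet marker listed, went the other way. It stood at 87.7 and 137 CPM in mucosal-keratin, 41.7 and 54.2 in Gpha2 and 3.68 and 6.15 in corneal cells. Blood cells also transcribe lipoxygenase genes, so their markers were summed. In the mucosal-keratin class the 6 immune markers summed to 0 and 8.42 CPM, the 4 eosinophil and mast cell markers had no UMI, and the macrophage markers Adgre1, Csf1r, C1qa and Lyz2 had none. Cd68, the other macrophage marker listed, stood at 6.85 and 14.4 CPM in that class. All 5 macrophage markers summed to 7.37 and 6.93 CPM in corneal cells. In the Gpha2 class the immune sum was 0.672 and 61.7 CPM. Immune RNA was highest among low-keratin cells, at 1803 and 5410 CPM. Alox12e had 6 and 2 UMIs there, or 44.2 (Poisson interval 16.2 to 96.1) and 22.8 CPM (2.76 to 82.3). Alox15 had 1 and 0 UMIs there, or 7.36 CPM and nil, where 3 counts would be 34.2 CPM. For Alox12e, corneal cells stood at 0.650 and 4.24 CPM, below the first interval and inside the second. The part of blood cells in the counts of either gene was not tested.

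Alox12e was highest in the mucosal-keratin classes and close to nil in corneal cells. In the mucosal-keratin class it reached 192 CPM in library 1 (exact 95% Poisson interval 161 to 226; all such intervals cover counting error only) and 793 in library 2 (733 to 856). The mucosal-keratin class with Gpha2 held 304 (265 to 347) and 630 CPM (593 to 669). The order of these 2 classes was opposite in the 2 libraries, at 0.631-fold in library 1 and 1.26-fold in library 2 with neither interval spanning 1, so neither can be placed above the other. Next came the Krt15-only class at 108 (84.1 to 135) and 428 CPM (363 to 500), and the Gpha2 class at 92.1 (77.3 to 109) and 313 (289 to 337). Gpha2 cells held 0.857 and 0.731 times the Krt15-only level, and the intervals of these 2 classes overlapped in library 1 only. Corneal cells held 9 and 49 Alox12e UMIs, or 0.650 (0.297 to 1.23) and 4.24 CPM (3.14 to 5.61). Alox12e in the mucosal-keratin class was thus 295-fold (151 to 659) and 187-fold (140 to 255) its corneal level, and 2.08-fold (1.63 to 2.65) and 2.54-fold (2.27 to 2.83) its level in the Gpha2 class.

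Alox15 was likewise highest in the mucosal-keratin classes and lowest in corneal cells, and it had fewer UMIs than Alox12e in each Krt15-dominant class, with a larger fold between mucosal-keratin and Gpha2 cells. It stood at 138 (113 to 168) and 658 CPM (604 to 715) in the mucosal-keratin class and at 129 (104 to 158) and 359 (331 to 388) in the mucosal-keratin class with Gpha2. The former was 1.07-fold the latter in library 1, with an interval of 0.801 to 1.44, and 1.83-fold in library 2 (1.63 to 2.06), so the order is clear in library 2 alone. The Gpha2 class held 35.0 (26.1 to 45.8) and 93.9 (81.4 to 108), and the Krt15-only class 32.8 (20.6 to 49.7) and 177 (137 to 226). Corneal cells held 23 and 27 UMIs, or 1.66 (1.05 to 2.49) and 2.34 CPM (1.54 to 3.40), which in library 1 was above Alox12e. Levels in the mucosal-keratin class were 3.96-fold (2.81 to 5.64) and 7.01-fold (5.95 to 8.28) those in the Gpha2 class, and 83.3-fold and 281-fold those in corneal cells. For each Alox15 UMI, mucosal-keratin cells held 1.39 and 1.20 Alox12e UMIs and Gpha2 cells held 2.63 and 3.33. These are counts of 3′ ends, which need no correction for gene length, although capture can still differ between genes.

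**Figure D1:**
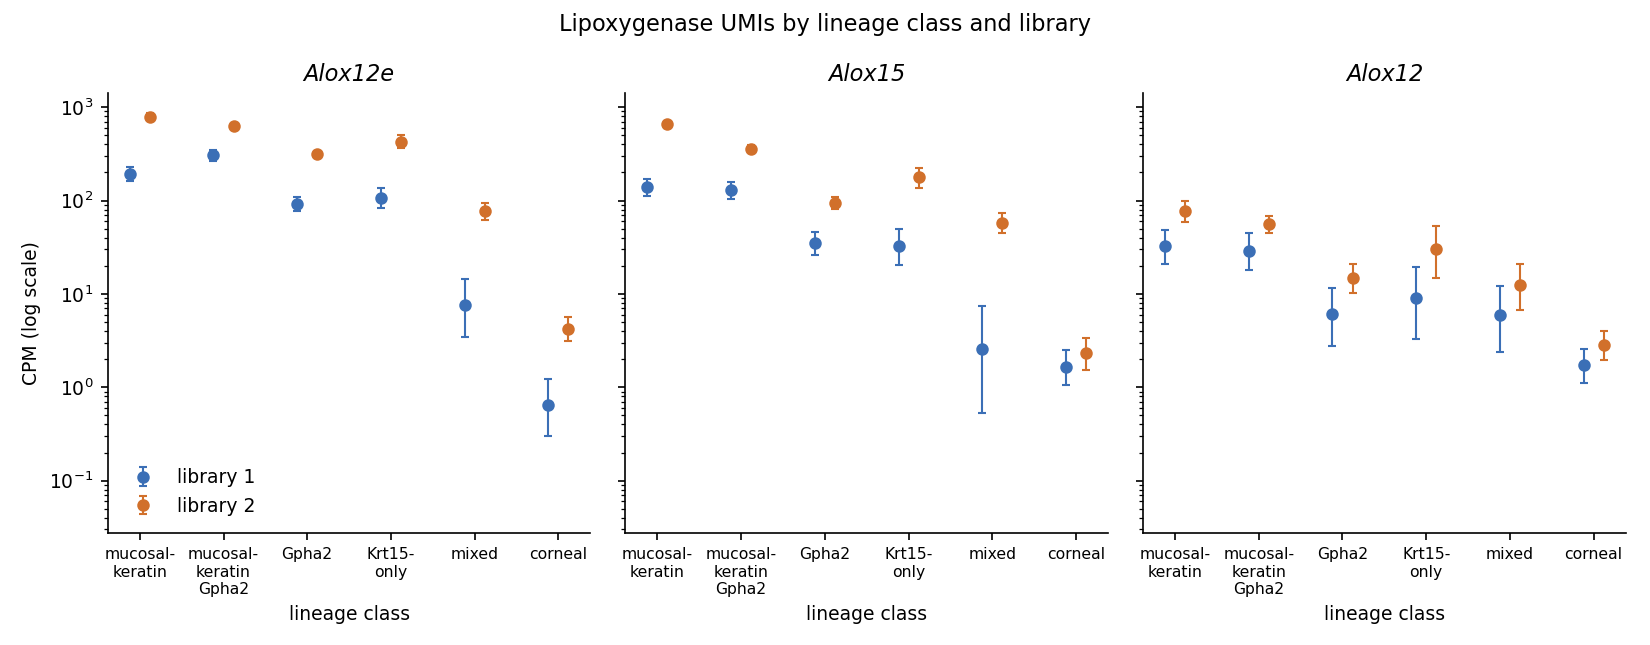
Summed level of Alox12e, Alox15 and Alox12 in CPM (log axis) in 6 cell classes of each library; points are library sums and bars are exact 95% Poisson intervals, which cover counting error only. All 3 genes sit lowest in corneal cells, where Alox12e was 0.650 and 4.24 CPM, and library 2 lies above library 1 in every Krt15-dominant class.

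Of all kept Alox12e UMIs, 95.9% in library 1 and 94.9% in library 2 came from Krt15-dominant cells, which were 20.8% and 32.0% of cells. For Alox15 these shares were 90.8% and 93.9%. The mucosal-keratin classes alone, 7.22% and 13.4% of cells, gave 60.6% and 64.2% of Alox12e UMIs and 65.8% and 76.3% of Alox15 UMIs. Within these classes the RNA was unevenly spread over cells. No Alox12e UMI was found in 61.7% and 22.6% of the 230 and 402 mucosal-keratin cells, whereas 3.04% and 12.4% had 10 or more, and the richest cell held 18 and 26. For Alox15 the shares without a UMI were 71.7% and 39.8%, and 0.870% and 7.71% of cells had 10 or more.

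With each cell thinned to 2000 UMIs and the 662 shallower cells left out, an Alox12e UMI was found in 27.2% and 67.1% of mucosal-keratin cells, 13.5% and 34.7% of Gpha2 cells, and 0.147% and 0.185% of corneal cells. The same shares at full depth were 36.7% and 77.2%, 21.1% and 43.8%, and 0.304% and 1.37%. Thinned shares for Alox15 were 18.4% and 52.9% in mucosal-keratin cells, 6.57% and 13.4% in Gpha2 cells and 0.294% and 0.370% in corneal cells, and unthinned ones were 26.7% and 62.7%, 11.2% and 23.8%, and 0.911% and 0.988%. Corneal cells had median depths of 5785 and 6375 UMIs against 5552 and 5355 in the mucosal-keratin class. Shares in the mucosal-keratin and Gpha2 classes lay far above those in corneal cells. No estimate of free RNA was made, so its part in these shares was not tested.

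Among Krt15-dominant cells, both genes ran higher where the mucosal keratins, themselves used to place cells, were higher. In library 2, Alox15 stood at 61.3 CPM in cells with no mucosal keratin UMI, 155 with 1 to 2, 200 with 3 to 4, 268 with 5 to 9, 424 with 10 to 19, 579 with 20 to 39 and 1112 with 40 or more. In library 1 the same bins gave 25.7, 44.4, 73.4, 140, 155, 102 and 323 CPM, so the level was lower at 20 to 39 UMIs than at 10 to 19, and the last bin held 12 cells. Alox12e ran from 233 to 1070 CPM in library 2 without a reversal. Library 1 gave 71.2, 127, 185, 238, 328, 200 and 385 for Alox12e. Between the first and last bins, the Alox15 level thus differed by a larger factor than that of Alox12e in both libraries. Cells with more keratin UMIs were also deeper, and the part of depth in the result was not tested.

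Both genes were lower at high Krt12 shares, but not evenly from bin to bin. Alox12e in library 1 was 219 CPM in cells where Krt12 made up less than 0.1 of Krt12 and Krt15, 68.6 at 0.1 to 0.2, 50.7 at 0.2 to 0.3 and 18.7 at 0.3 to 0.4, just inside the limit of Krt15-dominant cells. Just outside it, at 0.4 to 0.6, it was 5.29, at 0.6 to 0.8 it was 10.2 and at 0.95 or more it was 0.332. In library 2 the values just inside and just outside were 93.3 and 118, so the level did not drop at the limit, and it was 1.17 at 0.95 or more. Alox15 in library 2 stood at 53.1 at 0.2 to 0.3, 99.2 at 0.3 to 0.4 and 108 at 0.4 to 0.6. Library 2 cells between 0.8 and 0.95 still held 28.5 Alox12e and 12.3 Alox15 CPM. These cells held 37 of the 49 corneal Alox12e UMIs of library 2, and 5 of 9 in library 1. No doublet caller was run, and droplets holding a cell of each kind would fall in these middle bins.

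**Figure D2:**
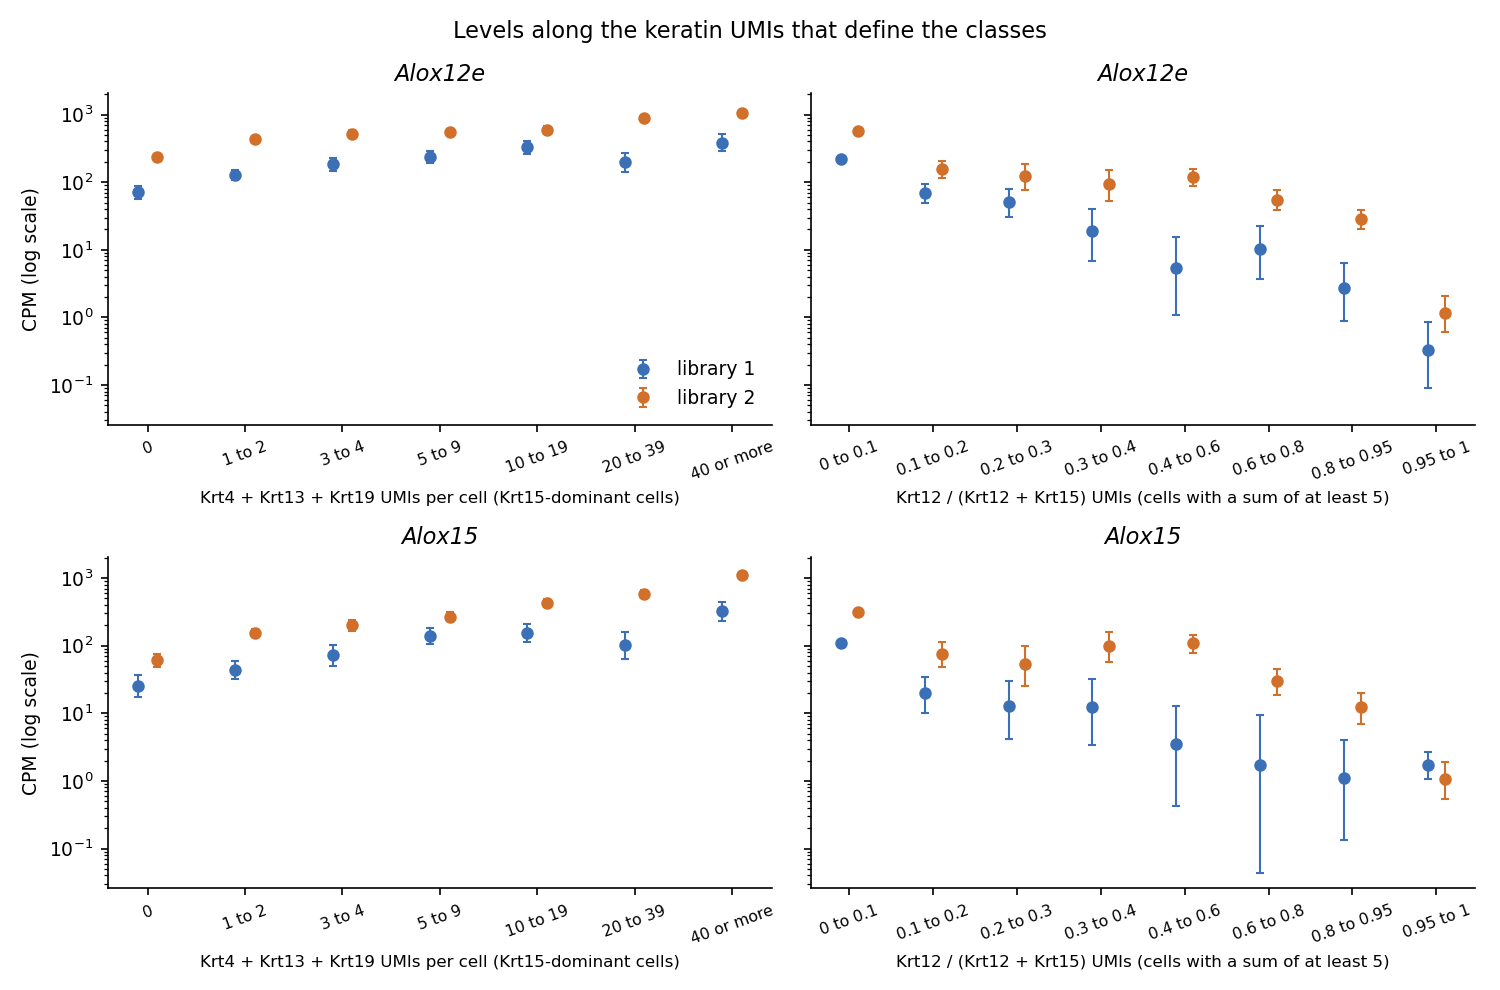
Alox12e and Alox15 in CPM by bins of summed Krt4, Krt13 and Krt19 UMIs in Krt15-dominant cells and by bins of the Krt12 share in all cells with enough Krt12 and Krt15; bars are exact 95% Poisson intervals. Alox15 in library 2 climbs from 61.3 to 1112 CPM along the mucosal keratins, and both genes fall to under 2 CPM at the highest Krt12 share.

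The libraries differed in both genes within every Krt15-dominant class. Library 2 held 4.13 times the Alox12e of library 1 in mucosal-keratin cells (3.44 to 5.00), 2.07 times in mucosal-keratin cells with Gpha2 (1.79 to 2.41), 3.39 times in Gpha2 cells (2.82 to 4.11) and 3.98 times in Krt15-only cells. For Alox15 the ratios were 4.76 (3.84 to 5.94), 2.78, 2.69 and 5.39. Alox12 was 2.34 times higher in mucosal-keratin cells and 2.47 times in Gpha2 cells. In corneal cells the ratio was 6.53 for Alox12e (3.17 to 15.1), whereas for Alox15 it was 1.41 with an interval of 0.777 to 2.57. With 1 library on each side these intervals compare the 2 libraries only.

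The share of Krt15-dominant cells with an Xist UMI at 2000 UMIs per cell also differed, at 47.0% in library 1 and 68.4% in library 2. Xist is the RNA that coats the inactive X chromosome. Among cells with an Xist UMI, library 2 held 3.67 times the Alox12e (3.21 to 4.22) and 3.81 times the Alox15 (3.17 to 4.62) of library 1. Among cells without one, the ratios were 2.88 (2.52 to 3.29) and 3.89 (3.19 to 4.76). Library 2 was the higher on both sides of this split. A cell without an Xist UMI at this depth may still hold Xist RNA, so the split is not one by sex. The part of sex in the difference between the libraries was not tested. In the mucosal-keratin classes the ratios ran from 2.34 to 3.92 across genes and sides, and in the Gpha2 class from 2.56 to 4.09.

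Alox12e and Alox15 were found in the same cells more often than their single shares would give. At 2000 UMIs, 56 of 642 Krt15-dominant cells of library 1 held both, where the product of the shares would give 14.2, and 174 of 882 cells of library 2 held both, where it would give 104. An Alox12e UMI was present in 76.7% and 77.3% of cells with an Alox15 UMI, against 12.1% and 35.5% of cells without. No corneal cell held both. Because classes and depth alone can produce such counts, the comparison was repeated within class with cells matched on total UMIs.

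Cells with an Alox15 UMI held more Alox12e in every class of both libraries that had enough cells. The 361 cells with an Alox15 UMI were set against 361 without, matched by depth decile within library and class, as 14 sums. In mucosal-keratin cells the Alox12e level was 557 CPM with and 97.9 without in library 1, and 935 and 329 in library 2. Mucosal-keratin cells with Gpha2 gave 906 against 127 and 872 against 230, and Gpha2 cells 412 against 47.2 and 675 against 146. Krt15-only cells of library 2 gave 1073 against 96.9. The smallest level with Alox15 in a class exceeded the level without in the same class each time. The log2 fold change was 2.18 (SE 0.15, edgeR adjusted p = 3.92e-07), and 2.77 and 2.26 in the single libraries. The 14 sums come from 2 libraries, so the p-value measures the spread over classes and libraries together.

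The reverse comparison gave a larger difference. With 467 cells per arm and 16 sums, Alox15 stood at 359 CPM with and 50.8 without an Alox12e UMI in mucosal-keratin cells of library 1, and at 761 and 82.7 in library 2. Values were 296 against 14.1 and 556 against 28.6 in mucosal-keratin cells with Gpha2, and 132 against 14.6 and 182 against 15.6 in Gpha2 cells. Krt15-only cells gave 383 against 62.1 in library 2, and 218 in library 1 against no UMI, where 3 counts would be 31.2 CPM. Each arm of a class and library is 1 sum, and the sum with an Alox12e UMI held the higher Alox15 level each time. The log2 fold change was 3.48 (SE 0.16, edgeR adjusted p = 1.94e-23), with 3.85 and 3.36 in the single libraries. This p-value too measures the spread over classes and libraries together.

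**Figure D3:**
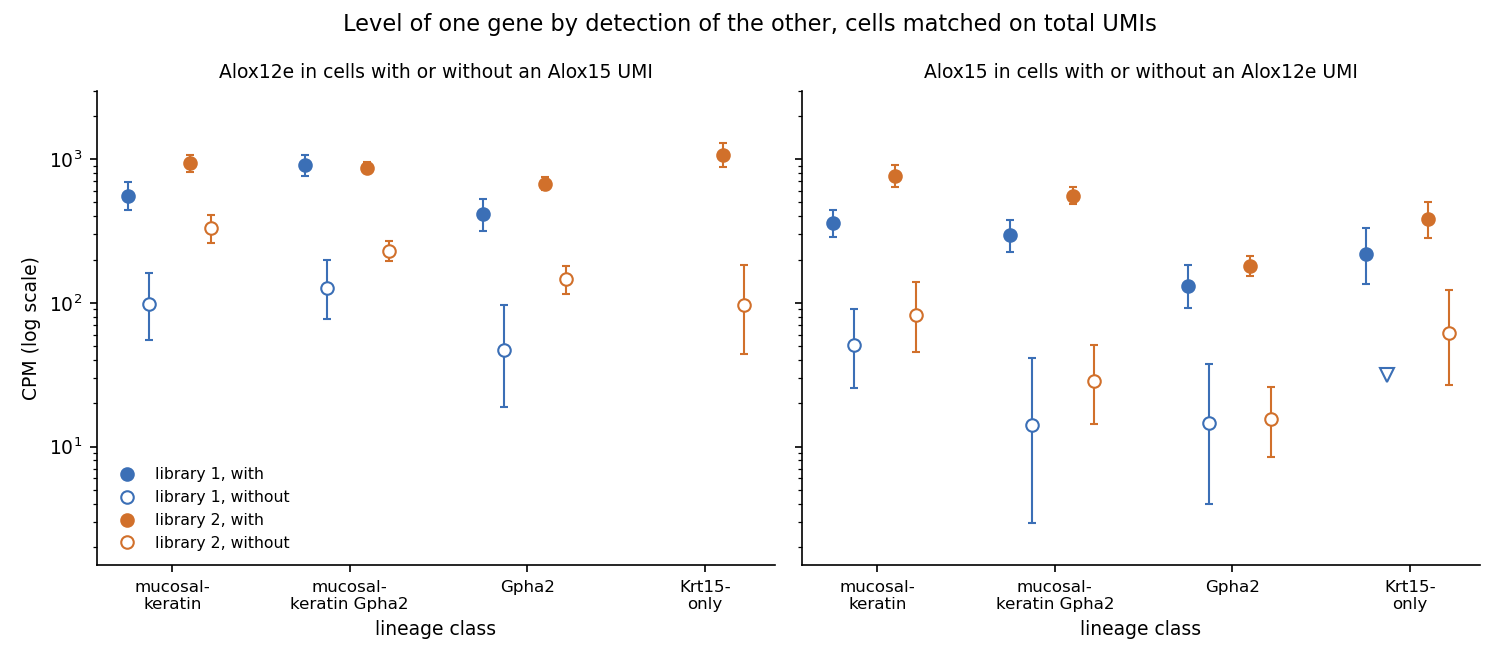
Level of each lipoxygenase gene in CPM (log axis) in Krt15-dominant cells with (filled) and without (open) a UMI of the other gene, by class and library, cells matched on total UMIs; bars are exact 95% Poisson intervals, the open triangle marks 0 UMIs drawn at the level of 3 counts, and Krt15-only cells of library 1 were too few for the left panel. In each class and library the filled point lies above the open one, for example 557 against 97.9 CPM for Alox12e in mucosal-keratin cells of library 1.

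The cells that held either gene also differed in other RNAs. Between cells with and without an Alox15 UMI, 71 of 2305 genes tested rose (3.08%) and 49 fell (2.13%), or 5.21% in all. Those with the largest rises were Plac8 (log2 fold change 1.80), the mucosal keratin Krt19, itself used to place cells (1.37), Hopx, an atypical homeodomain protein (1.14), and Ceacam1, a cell adhesion glycoprotein (1.12). The largest falls were in Slc6a6, a taurine transporter (-1.82), Mgarp (-1.49), the serine protease Tmprss11a (-1.47), Lcn2, a siderophore-binding lipocalin (-1.22), and 2610528A11Rik (-1.19). Between cells with and without an Alox12e UMI, 111 of 3217 genes rose (3.45%) and 94 fell (2.92%), or 6.37% in all. Krt19 (1.73), Plac8 (1.71), the simple keratin Krt8 (1.55) and Sftpd, a surfactant collectin (1.55), rose most, and Mgarp (-2.18), Slc6a6 (-2.06), Mxra7 (-1.84), Lcn2 (-1.63) and Tmprss11a (-1.60) fell most. The corneal keratin Krt12, used to place cells, was lower in cells with an Alox12e UMI (-1.51, edgeR adjusted p = 0.0278) and did not pass for Alox15 (-1.15, adjusted p = 0.0739), and the simple keratin Krt7 was higher in both (1.33 and 0.91, adjusted p = 0.00281 and 0.00218). These keratin differences within classes stand beside every change listed here, and their part in it was not tested beyond the match on mucosal keratins; both genes were named after their values were seen. Gpha2 did not pass the test in either comparison (log2 fold change -0.20 and -0.13). The rises of Plac8 and Ceacam1 with Alox15 ended when cells were matched on mucosal keratins as well (edgeR adjusted p = 0.116 and 0.0986), while Alox12e itself was still higher by 1.89 in log2 and Alox15 by 3.49 in the other comparison. Both comparisons draw on the same cells, so their lists are not independent.

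Both genes were lower in S phase than in G2/M among Krt15-dominant cells by the phase scores used here, a call that other settings did not hold. Phase was called from 36 S and 50 G2/M genes, and neither member is among them. Alox12e stood at 70.4 and 421 CPM in S cells against 178 and 496 in G2/M cells, and Alox15 at 28.7 and 197 against 84.5 and 265. The few cells called G1, 24 in library 1 and 93 in library 2, stood at 243 (159 to 356) and 841 CPM (747 to 942) for Alox12e and 140 (78.5 to 231) and 684 (600.1 to 776) for Alox15. In library 1 the Alox12e UMIs of G1 came from 5 cells, and for both genes the G1 interval takes in the G2/M level. The log2 fold change of S over G2/M was -0.53 for Alox12e (SE 0.13, edgeR adjusted p = 0.00184) and -0.65 for Alox15 (SE 0.16, adjusted p = 0.00156), in a comparison where 8.41% of 10557 genes passed. Library 1 gave most of it, with -1.33 and -1.53 against -0.24 and -0.42 in library 2. The Alox12e call ended within the mucosal-keratin classes alone (-0.28, adjusted p = 0.370), where Alox15 was still lower (-0.72, adjusted p = 0.00096), and both calls ended with DESeq2 (adjusted p = 0.256 and 0.225) and with no library block (adjusted p = 0.945 and 0.924). With cells split at the median ratio of S to G2/M UMIs the values shrank to -0.16 and -0.11 (adjusted p = 0.219 and 0.609).

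In corneal cells the counts were too small to compare phases. Alox12e had no UMI in S cells of library 1, where 3 counts would be 0.902 CPM, and stood at 1.78 CPM in library 2, against 0.890 and 5.11 in G2/M cells. Alox15 stood at 3.01 and 1.42 CPM in S against 1.29 and 2.80 in G2/M cells, so its direction differed between the libraries. Both genes passed the filter on low counts only through the Krt15-dominant sums, so no test is given for corneal cells or for a difference between the lineages.

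**Figure D4:**
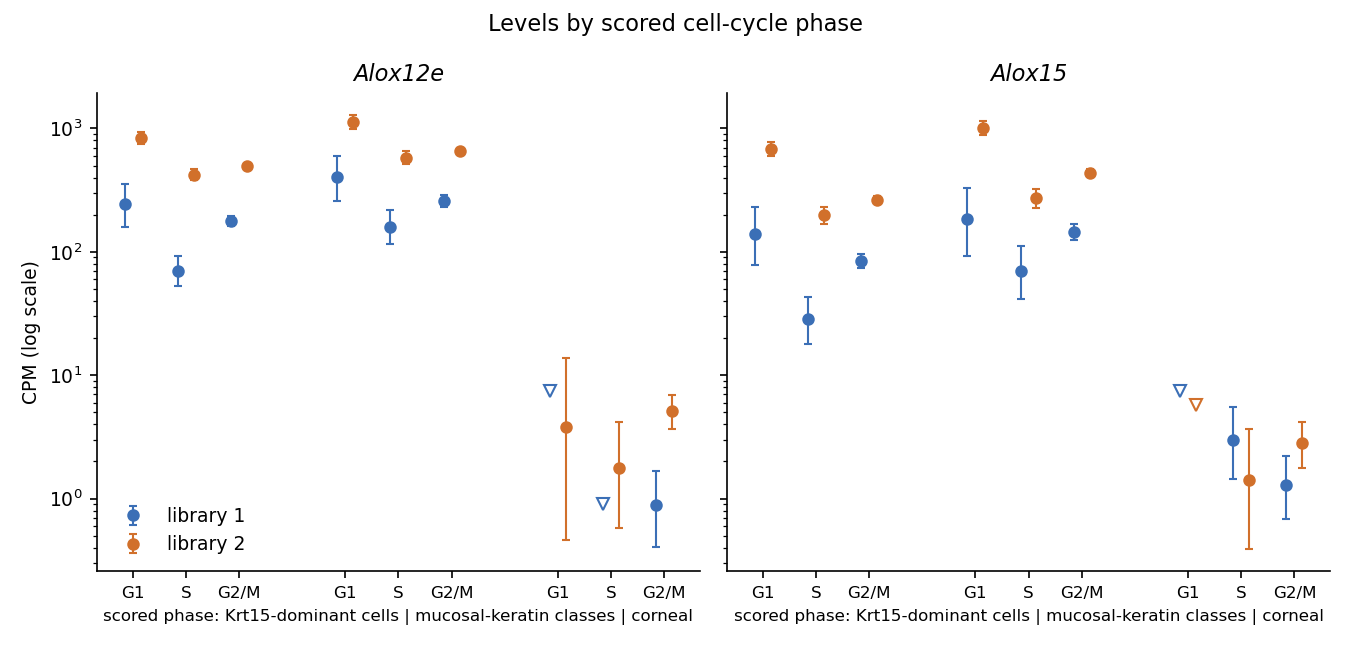
Alox12e and Alox15 in CPM (log axis) in cells called G1, S and G2/M, for Krt15-dominant, mucosal-keratin and corneal cells of each library; bars are exact 95% Poisson intervals, and a triangle marks 0 UMIs at the level of 3 counts. In Krt15-dominant cells S lies below G1 and G2/M in each library, with Alox15 at 28.7 and 197 CPM in S.

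Alox12, the third gene of the row, was also highest in the mucosal-keratin classes and lowest in corneal cells. Its levels lay below those of both members in the Krt15-dominant classes. It stood at 32.9 and 77.0 CPM in the mucosal-keratin class and 29.1 and 56.1 in the mucosal-keratin class with Gpha2. The former was 1.13-fold the latter in library 1 (0.602 to 2.13) and 1.37-fold in library 2 (0.984 to 1.91). Both intervals spanned 1, so neither class can be placed above the other. The Gpha2 class held 6.05 and 15, the Krt15-only class 8.96 and 29.96, and corneal cells 1.73 and 2.86. Alox12 showed no overlap between the mucosal-keratin, Gpha2 and corneal classes, but its Gpha2 and Krt15-only values overlapped. Against corneal cells it was higher by 4.54 in log2 in the mucosal-keratin class (SE 0.31, edgeR adjusted p = 4.02e-15, where 14.4% of 9444 genes were called higher) and by 2.13 in the Gpha2 class (SE 0.36, adjusted p = 8.49e-06, where 14.3% were). Alox12 had only 24 and 33 UMIs in corneal cells and passed the filter on low counts through classes where it was higher. The p-values against corneal cells therefore add little to the levels themselves. Mucosal-keratin cells exceeded Gpha2 cells by 2.41 (SE 0.32, adjusted p = 2.43e-07, where 9.06% were called higher). For the members the same fit gave 7.65, 6.37 and 1.28 for Alox12e and 7.48, 4.88 and 2.60 for Alox15, as descriptions. Beyond Alox15 lies Pelp1, a nuclear receptor coregulator at 70392883 to 70410031, which ranged from 25.3 to 41.6 CPM and did not pass the test between mucosal-keratin and corneal cells (log2 fold change -0.15, adjusted p = 0.705). Med11, a Mediator subunit farther out, did not pass in that comparison (0.67, adjusted p = 0.137) and was higher in Gpha2 than in corneal cells (0.71, adjusted p = 0.0251).

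Other lipoxygenases were scarce. Alox5, the leukotriene-forming enzyme, had 21 and 44 UMIs in all kept cells, of which corneal cells held 17 and 35. Alox5ap, its partner protein, had 34 and 13. Aloxe3 and Alox8 had 4 and 2 UMIs and 1 and 0 UMIs, and Alox12b had none, where 3 counts would be 0.160 and 0.169 CPM.

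Of 75 counted genes around arachidonate, listed by role with earlier results known, 39 were abundant enough to test. In mucosal-keratin against corneal cells 6 rose (15.4%, beside 14.4% of all genes) and 12 fell (30.8%, beside 11.5%). The Gpha2 class gave 8 higher (20.5%, beside 14.3%) and 14 lower (35.9%, beside 13.0%). Between mucosal-keratin and Gpha2 cells 6 rose (15.4%, beside 9.06%) and 5 fell (12.8%, beside 7.11%). The median log2 fold change of the tested list was -0.27, -0.24 and -0.09 in the 3 comparisons, beside -0.01, 0.00 and -0.03 over all genes.

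Enzymes that reduce lipid hydroperoxides mostly fell. Prdx6, a peroxiredoxin that also acts as a phospholipase, stood at 314 and 268 CPM in mucosal-keratin cells, 504 and 439 in Gpha2 cells and 982 and 1263 in corneal cells. This was a log2 fold change of -1.93 and -1.28 against corneal cells and -0.65 between the Krt15-dominant classes. Gpx4, the peroxidase that acts on lipid hydroperoxides in membranes, fell by 0.83 and 0.31, and Gpx1 fell by 0.63 and 0.45. The Gpha2 calls ended with no library block (adjusted p = 0.260 for Gpx4 and 0.115 for Gpx1), that of Gpx4 also with stricter class limits (0.0620), and the Prdx6 call between the Krt15-dominant classes with no block (0.0512) or with cells classed after thinning (0.101). Gpx2, an epithelial glutathione peroxidase, went the other way. It stood at 41.1 and 77.0 CPM in mucosal-keratin cells and 73.9 and 149 in Gpha2 cells against 7.0 and 3.98 in corneal cells, a log2 fold change of 3.33 and 4.20. Of the list, 8 and 9 genes were abundant enough to test between cells with and without an Alox15 or Alox12e UMI. In each comparison 1 rose and 2 fell. Of all genes tested, 3.08% rose and 2.13% fell with Alox15, and 3.45% and 2.92% with Alox12e. So few listed genes cannot be set against those shares. Cells with the UMI held more Gpx2 (log2 fold change 0.81 and 1.20, edgeR adjusted p = 0.00636 and 0.00808) and less Prdx6 (-0.63 and -0.71, adjusted p = 0.000108 and 2.03e-07). Jak1, a kinase of cytokine receptors, was also lower (-0.72 and -0.68, adjusted p = 0.0144 and 0.00217).

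Genes that supply or take up the fatty acid changed less evenly. Fads1, the desaturase that makes arachidonate, was at 16.4 and 3.61 CPM in mucosal-keratin cells, 26.2 and 22.0 in Gpha2 cells and 62.2 and 77.8 in corneal cells (log2 fold change -2.84 and -1.58 against corneal cells). Pla2g4a, the cytosolic phospholipase that frees arachidonate, did not pass between mucosal-keratin and corneal cells, was lower in Gpha2 cells (-0.47), and was 0.77 higher in mucosal-keratin than in Gpha2 cells. The acyl-CoA synthetase Acsl3 rose by 0.57 and 0.55 against corneal cells, while Acsl4, which prefers arachidonate, fell by 1.08 in mucosal-keratin cells. Lpcat3, which puts arachidonate into phospholipids, was lower in Gpha2 cells (-1.09). The calls of Acsl3, Acsl4 and Pla2g4a were each lost under at least 1 other setting.

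Of 9 prostaglandin genes tested, 1 was higher and 2 were lower in mucosal-keratin than in Gpha2 cells. Of all genes, 9.06% were higher and 7.11% lower in that comparison, and 9 genes are too few to set against those shares. Ptges, the inducible prostaglandin E synthase, stood at 19.2 and 12 CPM in mucosal-keratin cells, 64.5 and 72.9 in Gpha2 cells and 37.7 and 25.6 in corneal cells. It was thus lower than corneal in mucosal-keratin cells (log2 fold change -1.02, a call lost with DESeq2 at adjusted p = 0.0736), higher in Gpha2 cells (1.11), and different between them by -2.13 with no overlap. Ptgr1, a reductase that inactivates leukotriene B4 and prostaglandins, was at 84.9 and 120 CPM in mucosal-keratin cells, 30.9 and 33.6 in Gpha2 cells and 241 and 307 in corneal cells. Hpgds, a prostaglandin D synthase, fell by 1.21 and 1.36 against corneal cells. Abcc4, an exporter of prostaglandins, rose by 1.00 in mucosal-keratin cells. Of the genes upstream of Alox15 in other cells, Jak1 fell by 1.12 and 1.05 and Stat6 rose by 0.77 and 0.47 against corneal cells. The Stat6 call in Gpha2 cells was lost in 6 other settings, at adjusted p from 0.0553 to 0.163.

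**Figure D5:**
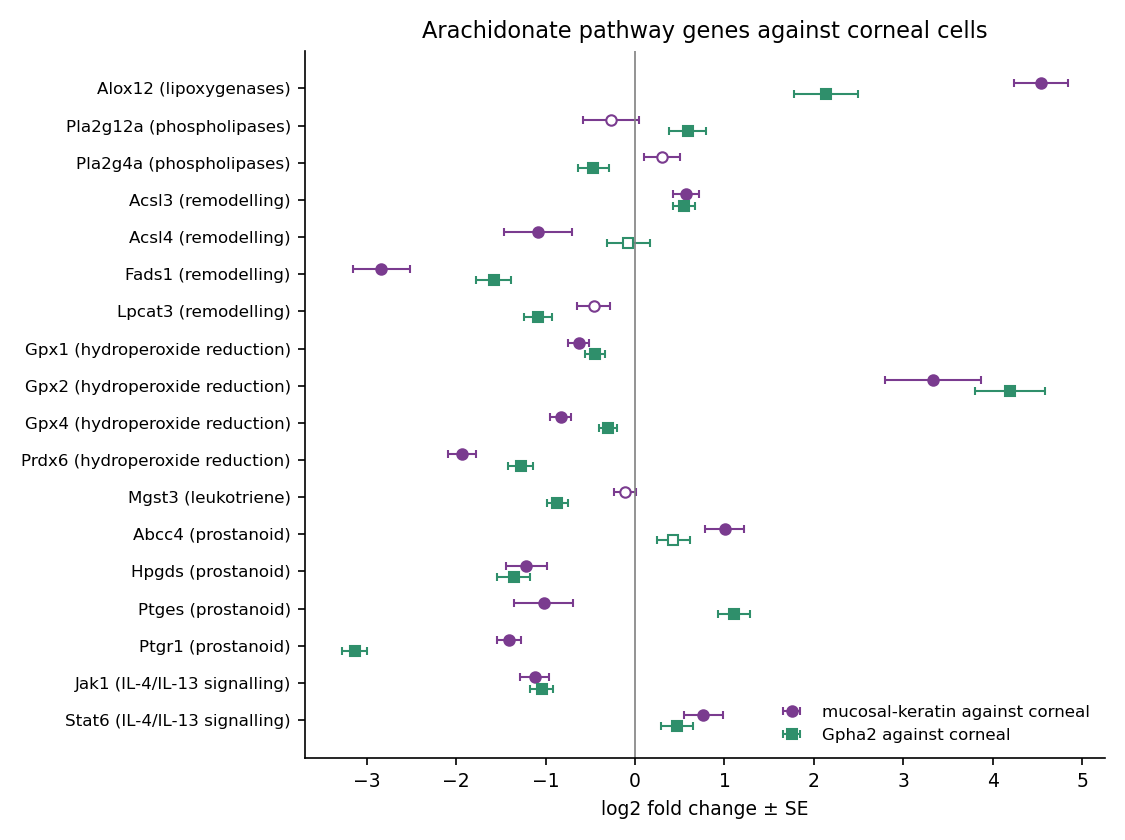
Log2 fold change against corneal cells, with its standard error, of arachidonate genes in the mucosal-keratin class (circles) and the Gpha2 class (squares), from edgeR fits over 2 libraries; filled symbols passed an adjusted p of 0.05. Alox12 (4.54) and Gpx2 (3.33 and 4.20) lie far to the right, Fads1 (-2.84 and -1.58) to the left, and Ptges falls on opposite sides in the classes.

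The genes whose levels ran most like those of Alox12e over 7 classes in 2 libraries, 14 values centred within library, were Dpysl3 (Pearson's r 0.985), the aminopeptidase Anpep (0.981), the Krueppel-like factor Klf5 (0.974), Crip2 (0.972), Tppp3 (0.972), Fam241a (0.964), the small heat shock protein Hspb8 (0.962) and the claudin Cldn3 (0.962), of 5895 genes ranked. Alox15 was at rank 17 (0.946) and Alox12 at rank 59 (0.895). The values share libraries and cells, so the correlations describe the pattern only. Their spans differed widely. Klf5 stood at 459 and 427 CPM in mucosal-keratin cells and 178 and 164 in corneal cells, a far smaller range than that of Alox12e, while Dpysl3 stood at 19.2 and 69.8 against 2.31 and 5.98. For Alox15 the closest genes were Fam241a (0.969), Pir (0.953), the kallikrein Klk10 (0.953), Klf5 (0.95), the adhesion molecule Epcam (0.946), Alox12e itself at rank 6 (0.946), the aminotransferase Got2 (0.938) and Sorbs2 (0.936), with Alox12 at rank 37.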

How the data were processed

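The deposited matrix holds whole-number counts of UMIs per gene and cell. Per the submitters' processing notes, the authors used Cell Ranger 3.1.0 and Seurat 5.0.0 with GRCm38/mm10; neither a cell filter nor any equalising of depth between libraries is stated there. Kept cells had at least 500 genes and under 20% mitochondrial UMIs. Raw UMIs were summed by library and class, and levels are counts per 1000000 UMIs (CPM) with exact 95% Poisson intervals, or shares at 2000 UMIs per cell. No doublet caller was run, so doublets must be assumed to remain; an alternative left out the 5% of cells with the most UMIs.

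Tests were edgeR 4.0.16 quasi-likelihood fits (TMM, filterByExpr, R 4.3.3) on sums, with library or library by class as a block, Benjamini-Hochberg adjustment over all genes tested and a threshold of 0.05. Phases came from scanpy 1.11.5. DESeq2 1.42.0 was an alternative. On simulated counts of these sizes, genes changed by 1 in log2 were counted as recovered or not. The fits recovered 84.0% (classes), 83.0% (phases), 98.82% (with or without Alox15) and 99.44% (with or without Alox12e). These were of 200, 200, 169 and 180 changed among 9087, 10191, 2302 and 3247 genes, with 8, 3, 9 and 6 false calls. Simulated sums were independent and had no other differences between libraries or classes, so these shares may be too high for the data.

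The genes, classes and lists were chosen with earlier results of these data known. Named genes were the members, other lipoxygenases, called pathway genes (up to 3 per role and direction), the 5 largest changes per direction in each with-or-without comparison (all with a mean of at least 20 CPM and 1 sign in both libraries), the 8 most alike genes, and 3 chromosomal neighbours on each side. Sequences are from RefSeq.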

Additional observations from a re-analysis of the deposited data

How the results depend on the processing

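Mean levels over the libraries (Alox12e 492 ± 425 CPM in mucosal-keratin, 202 ± 156 in Gpha2 and 2.45 ± 2.54 in corneal cells; Alox15 398 ± 367, 64.4 ± 41.7 and 2.00 ± 0.479; SD, n = 2) have so wide an SD that staying within it says little. Corneal Alox12e, for example, went to 1.35 CPM with stricter class limits. The 3 Alox12 calls between classes held in every setting run. Shares of cells with a UMI, as means over the libraries, moved with depth: in corneal cells Alox12e was 0.166% at 2000 UMIs, 0.420% at 3000 and 0.838% unthinned, Alox15 was 0.332%, 0.519% and 0.95%, and Alox15 in Gpha2 cells was 10.0% at 2000 and 17.5% unthinned. Without the replicate block (library), pathway calls went from 8 higher and 14 lower to 5 and 9 in Gpha2 against corneal cells, and from 6 and 5 to 3 and 2 in mucosal-keratin against Gpha2 cells. Alox12 in the latter comparison was 2.35 to 2.39 in single libraries, which have no test of their own.

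For S against G2/M in Krt15-dominant cells, Alox12e was -0.67 with DESeq2 (adjusted p = 0.256), -0.41 with no replicate block (0.945), -0.16 with cells split into phases at the median ratio of summed S to G2/M UMIs (0.219), -0.28 in mucosal-keratin cells (0.370) and -1.33 to -0.24 in single libraries. Alox15 was -0.87 with DESeq2 (0.225), -0.57 with no replicate block (0.924), -0.11 with that split (0.609) and -1.53 to -0.42 in single libraries. The corneal fits carry no test, for want of counts. Their fitted Alox12e values were -1.77 with DESeq2, -1.69 with no replicate block and -1.65 with under 10% mitochondrial UMIs. They were -1.56 with at least 1000 genes, -1.29 without the 5% deepest cells, -0.55 with that split and -2.64 to -1.40 in single libraries. The difference between lineages was 1.17 to 1.31 for Alox12e in single libraries. Corneal S cells held 0 and 5 Alox12e UMIs, so no direction is read from these values. Alox15 changed sign between single libraries, at 1.24 and -0.84 in corneal cells and -2.77 and 0.42 for the difference.

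Alox12e with against without Alox15 was 2.26 to 2.77 in single libraries, and Alox15 with against without Alox12e was 3.36 to 3.85. Counts for Alox15 status (71 higher, 49 lower) became 43 and 23 with DESeq2, 141 and 83 with no matching, 24 and 20 with no replicate block, 114 higher with 4 sums (classes pooled), and 26 lower with stricter class limits. For Alox12e status (111 and 94) they became 63 and 40 with DESeq2, 232 and 185 with no matching, 48 and 40 with no replicate block, 60 and 48 with stricter limits, and 148 lower with at least 1000 genes. With matching on mucosal keratins, added after seeing the data, Krt4 by Alox15 status (-0.18) and Krt13 by Alox12e status (-0.0060) changed sign. Of 895 values of 72 results on single genes, 791 kept direction and call, 72 lost the call, 30 moved and 2 reversed; the causes were not tested. Corneal counts of 9 to 49 UMIs limit any reading of the genes there, and 2 libraries limit every test.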
